A study of Homo sapiens with 6 samples.

Results

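CAL-27 is a human tongue squamous cell carcinoma line, and the cells described here carried a negative control short hairpin RNA, shCtrl, as the unperturbed arm of a study that lowered the spliced form of the transcription factor XBP1 in the other arm. The 3 shCtrl arrays, replicates 1 to 3, were taken by their titles out of the 6 arrays of the series, and no value of the shXBP-1s arrays was used. The labels describe the hairpin as a transfection, and the study's methods describe stably transduced lines. Neither says whether the line was 1 clone. The methods speak of independent experiments for the study in general, and no label ties the 3 arrays to separate cultures, so part or all of the spread between them may be technical. Total RNA was hybridised to 1-colour Agilent whole-genome arrays, and each value is the scanner software's background-subtracted signal of a spot, in arbitrary units.

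Stratified squamous epithelium, the lining of the tongue, is renewed from a basal layer. Basal cells make the keratin pair KRT5 and KRT14, are governed by the transcription factor TP63, and are fixed to the basement membrane by hemidesmosomes built on the integrin ITGA6/ITGB4 and laminin-332. As cells leave that layer they exchange these proteins for those of a cornified envelope, such as involucrin, loricrin, small proline-rich proteins and filaggrin. Squamous carcinoma lines commonly keep part of the basal programme and often depend on signalling through EGFR.

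A gene was represented by its brightest probe. It was called detected when at least 1 of its probes was well above background on all 3 arrays, by the scanner software's own flag, and undetected when no probe was on any array. Its brightness percentile is the percent of genes with a lower signal, averaged over the arrays on the log2 scale. It is a place on the array rather than an amount of RNA, because probes bind their targets unequally. Of 19738 genes with a RefSeq symbol, 16434 were detected (83.3%), 2362 were undetected (12%) and 942 were detected in part. Each count of detected members given below is to be read beside that 83.3%. The signal was 18.2 units at the 25th percentile of genes, 164.6 at the 50th, 1002.7 at the 75th and 27093.7 at the 99th. The 197 brightest genes, 1% of the total, held 30.3% of the summed signal, and the brightest 10% held 74.3%. Protein-coding genes were detected in 84.8% of 18148 cases and long non-coding RNA genes in 60.3% of 1034, and 24 of the latter lay among the brightest 10%. Both rules give a gene with more probes more chances. Genes with 2 or more probes were detected in 92.3% of cases with a median percentile of 60.9. For genes with 1 probe these values were 80.2% and 45.8. The lists below were not adjusted for the number of probes.

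The 3 arrays gave nearly the same picture. Across 34119 probes, which are not independent replicates, Pearson's r on the log2 scale was 0.9911 between replicates 1 and 2, 0.9920 between 1 and 3 and 0.9952 between 2 and 3. The median SD of a detected gene's percentile over the arrays was 0.671 points. The percent of probes well above background was 82.44%, 81.31% and 81.09% in replicates 1 to 3, and no spot was saturated. By the scan recorded in the headers, replicates 2 and 3 were read together and replicate 1 was read in another scan, beside the 3 shXBP-1s arrays, so scan and replicate cannot be told apart.

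The flag for detection passed low signals. Olfactory receptors, best known from the sensory neurons of the nose, were taken as a reference for mostly dim genes. Some of them are also transcribed in other tissues, and whether any is in these cells was not tested. Of 354 such genes on the array, 147 were detected and 158 undetected, and their median percentile was 13.8. The lowest signal that the flag passed was 4.86 to 5.96 units, against a median of 1.09 to 1.29 units for the 153 negative control spots of each array. The 99th percentile of those spots was 1.74 to 3.55 units. With that percentile as the threshold instead, 17365 genes were detected, 188 of them olfactory receptors. The signal exceeded by 5% of the olfactory receptors lay at the 44.4th percentile of all genes, and 10965 genes (55.6%) were above it. That level is given below as the olfactory limit. It was chosen after the values were seen. A single receptor, OR5L2, was at 4045, 4409 and 4234 units, at the 92.3rd percentile, and whether its probe binds another transcript was not tested. At the other end OR2AK2, OR9A4 and OR5AC2 were between 1.0 and 1.2 units on every array.

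**Figure D1:**
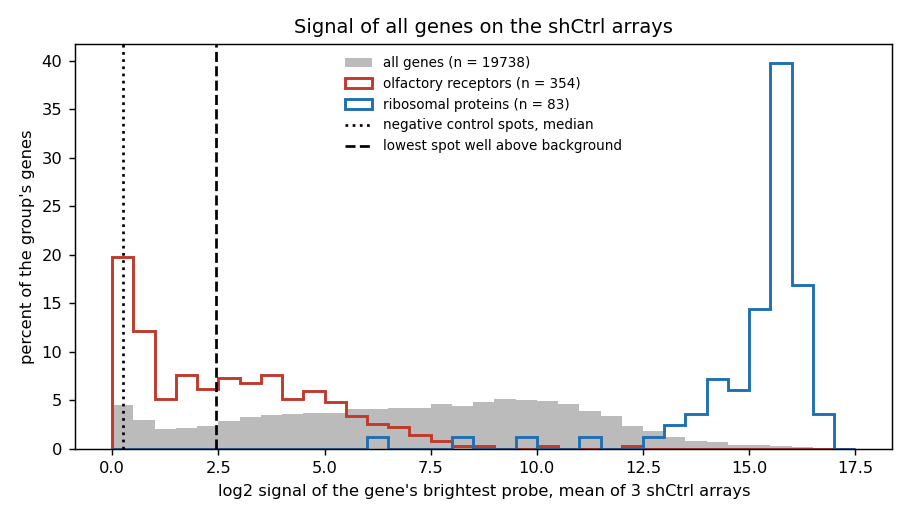
Log2 signal of each gene's brightest probe, as the mean of the 3 shCtrl arrays (x axis), against the percent of the group's genes (y axis), for all 19738 genes, the 354 olfactory receptors and the 83 ribosomal proteins. Vertical lines mark the median of the negative control spots and the lowest spot called well above background. Most ribosomal proteins lie at the right edge, and the olfactory receptors pile up at the left edge with a tail past the detection line.

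The list of basal squamous markers was bright as a whole in the shCtrl cells, but KRT5 and TP63 lay below its median, as given below. Some of its genes, such as SFN and PERP, are not confined to the basal layer. All 23 basal squamous markers were detected, 12 lay among the brightest 10% of genes and 22 were above the olfactory limit, with a median percentile of 90.6. S100A2, a calcium-binding protein of basal keratinocytes, was at 59255, 69368 and 72770 units in replicates 1 to 3, a percentile of 99.9 ± 0.025 (SD, n = 3). SFN, the epithelial 14-3-3 protein known as stratifin, was at 33021, 35505 and 31354 units. LAMB3, the beta chain of laminin-332, was at 19867, 21583 and 21221 units, and PERP, a desmosomal protein and TP63 target, at 18000, 22272 and 19644. These 4 markers lay above the 98th percentile on each array.

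The 3 genes set as markers of the line, the basal genes KRT5 and TP63 and the widely expressed receptor EGFR, were all detected, as were 83.3% of all genes, and lay at unlike places. KRT5 was at 1155, 1274 and 1306 units, a percentile of 78.1 ± 0.25. EGFR, the epidermal growth factor receptor, was at 3772, 3870 and 3940 units, a percentile of 91.5 ± 0.44, but its 3 probes were spread over the array and the dimmest lay at the 50.6th percentile of probes. TP63 was at 234.5, 208.3 and 235.9 units, a percentile of 54.1 ± 1.35, in the middle of all genes and above the olfactory limit. Among markers chosen after their values were seen, the basal keratins KRT15 and KRT14 were at percentiles of 90.6 ± 0.95 and 76.4 ± 1.18. The desmosomal plaque protein PKP1 was the dimmest of the 23, at 19.3, 21.4 and 18.6 units and a percentile of 25.8 ± 0.96, and was the sole one under the olfactory limit.

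Genes listed for simple, single-layered epithelia stood beside the basal ones, though some of them, such as CDH1, are not confined to such epithelia. Of 11 such genes, 10 were detected and 6 lay among the brightest 10%, with a median percentile of 90. KRT18, the main type I keratin of simple epithelium, was at 33746, 32799 and 34781 units, with both of its probes at or above the 94.0th percentile of probes. Its partner KRT8 was at 7217, 8281 and 6884 units. The adherens junction cadherin CDH1 was at 20795, 20950 and 22326 units, and the adhesion molecule EPCAM at 17109, 19476 and 19404. CLDN4, KRT7 and CLDN7 were at percentiles of 95.7, 90 and 82.1, and KRT23 was at 70.3. CLDN3 and KRT19 lay lower, at 48.7 and 42.6. KRT20, a keratin of the gut lining, was the member detected in part, at 21.8, 9.8 and 8.9 units.

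The late programme of the cornified layer was mostly dim. Of 32 genes, 23 were detected, a smaller share than the 83.3% of all genes, 7 were undetected and 2 were detected in part. Their median percentile was 27.7, none lay among the brightest 10%, and 8 were above the olfactory limit. KRT10, the type I keratin of suprabasal cells, was the brightest of them at 2995, 3204 and 2993 units and a percentile of 89.3 ± 0.50. The late cornified envelope gene LCE1A followed at 3006, 2868 and 3107 units. SPRR1A was at a percentile of 67.4, with its other probe at the 24.3rd percentile of probes, and CNFN at 66.7. RPTN, FLG2 and KRT2 were between 1.0 and 1.3 units on every array. Involucrin (IVL), chosen after its values were seen, was at 6.5, 5.4 and 5.0 units. In replicates 2 and 3 it was below the lowest signal that the flag passed there, 5.49 and 5.96 units. Loricrin (LORICRIN) was undetected at 4.2, 1.6 and 1.7 units. The mucosal keratins KRT13 and KRT4, which mark the suprabasal lining of the mouth, were at percentiles of 42.6 ± 0.84 and 40.3 ± 0.50.

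The stress keratins, made by squamous cells in wounds and in culture, were all detected at middling places. KRT17 was at a percentile of 74.1, KRT6B at 71.3, KRT6A at 52.0, KRT16 at 36.2 and KRT6C at 27.5. The 3 KRT6 genes are closely related, and whether their probes tell them apart was not tested. Over the whole keratin family, 40 of 53 genes were detected, 9 were undetected and 6 lay among the brightest 10%, with a median percentile of 34.2. KRT18, KRT80, KRT8 and KRT81 led it. KRT80, a keratin of the cell periphery, was at 10077, 10331 and 11117 units, and KRT81, a hair keratin, at 4750, 5823 and 5795. Of the 83 keratin-associated proteins of the hair shaft, 55 were detected, none lay among the brightest 10%, and the median percentile was 28.3.

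**Figure D2:**
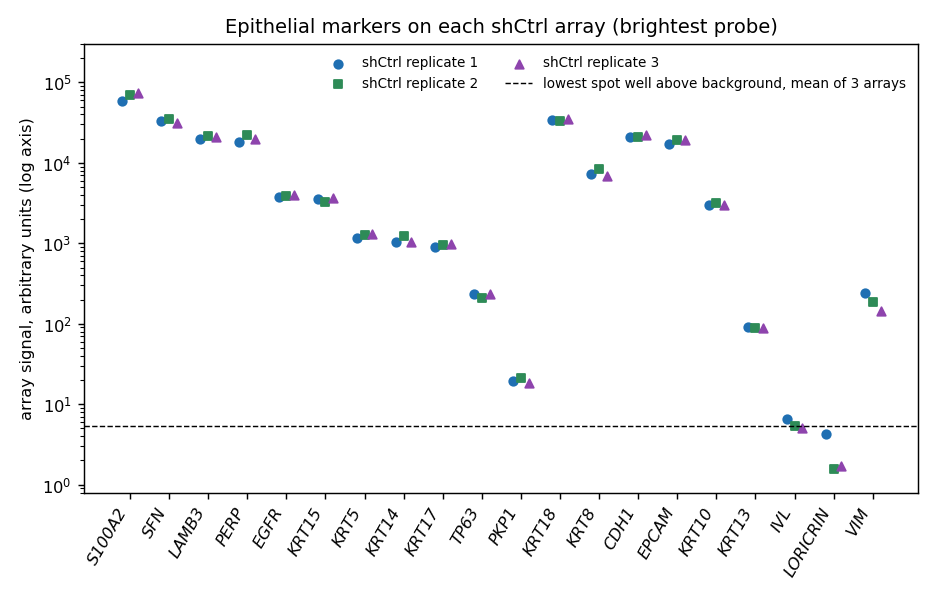
Array signal in arbitrary units (log y axis) of 20 epithelial and mesenchymal genes (x axis), with 1 point for each of the 3 shCtrl arrays. The dashed line is the mean of the lowest signals called well above background. S100A2 lies between 59255 and 72770 units on the 3 arrays, KRT5 between 1155 and 1306, and LORICRIN below the line. Heights of different genes also depend on their probes.

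The promoters of 5 of these genes are shown to put letters behind the counts of CG dinucleotides and of the motif TATAAA that follow. Windows of 300 bases, 250 before and 50 after the annotated start, came from RefSeq (GRCh38.p14) and were matched by symbol. Of 19738 genes 15331 had one (77.7%), too few for a comparison over all genes, so groups with under 80% of their members matched were left out. The motif TATAAA was searched on the gene's own strand 40 to 20 bases before the start, where a TATA box lies. Only that exact string was searched, so a window without it may hold a variant of the box. In that stretch it was present in 2.48% of all 27305 windows, and TATAAA or its reverse complement TTTATA was anywhere in 12% of them. Of the brightest 10% of genes with a window, 55 of 1649 held it (3.34%). Of the cornified genes 11 of 27 did, of the keratin-associated proteins 33 of 69 and of the olfactory receptors 4 of 286. Among brighter lists, TATAAA lay there in 3 of 13 EGFR family genes and 3 of 26 unfolded protein response genes. It lay there in 0 of 34 proteasome and 0 of 31 NADH dehydrogenase genes, and in 2 of 5 actins. Not every group is given here. The median number of CG dinucleotides in a window was 27 for the brightest 10%, 3 for the cornified genes, 2 for the keratin-associated proteins and 1 for the olfactory receptors, beside 14 in all windows of the RefSeq table. Those windows include genes with no probe here, so neither value over them is a base for the brightest 10%. Windows follow for the ribosomal protein RPLP2 (chr11:809717-810016, plus strand), the basal markers S100A2 (chr1:153565795-153566094, minus strand) and KRT5 (chr12:52520345-52520644, minus strand), and the cornified genes KRT10 (chr17:40822565-40822864, minus strand) and RPTN (chr1:152159179-152159478, minus strand). Capitals mark each CG and, in KRT10 and RPTN, TATAAA.
RPLP2: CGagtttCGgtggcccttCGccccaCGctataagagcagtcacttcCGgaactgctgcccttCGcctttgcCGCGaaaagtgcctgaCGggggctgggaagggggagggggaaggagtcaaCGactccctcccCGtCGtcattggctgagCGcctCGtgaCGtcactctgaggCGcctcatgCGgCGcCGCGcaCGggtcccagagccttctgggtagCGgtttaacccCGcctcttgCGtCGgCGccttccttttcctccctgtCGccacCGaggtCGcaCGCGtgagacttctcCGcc
S100A2: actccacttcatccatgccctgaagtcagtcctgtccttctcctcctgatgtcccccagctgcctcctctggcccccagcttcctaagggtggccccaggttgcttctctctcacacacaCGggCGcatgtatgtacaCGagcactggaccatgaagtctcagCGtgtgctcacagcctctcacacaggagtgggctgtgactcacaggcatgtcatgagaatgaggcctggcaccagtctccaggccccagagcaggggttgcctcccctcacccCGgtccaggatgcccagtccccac
KRT5: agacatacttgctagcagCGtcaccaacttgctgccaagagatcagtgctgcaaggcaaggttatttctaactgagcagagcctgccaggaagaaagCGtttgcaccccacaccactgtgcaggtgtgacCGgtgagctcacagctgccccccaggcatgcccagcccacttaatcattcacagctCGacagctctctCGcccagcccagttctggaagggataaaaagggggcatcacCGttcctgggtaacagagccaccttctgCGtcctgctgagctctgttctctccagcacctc
KRT10: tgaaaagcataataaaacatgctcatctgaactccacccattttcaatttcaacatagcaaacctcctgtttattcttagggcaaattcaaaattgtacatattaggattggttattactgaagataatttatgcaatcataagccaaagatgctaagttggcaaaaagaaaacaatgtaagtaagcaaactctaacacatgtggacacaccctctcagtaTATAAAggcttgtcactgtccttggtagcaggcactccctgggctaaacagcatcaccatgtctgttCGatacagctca
RPTN: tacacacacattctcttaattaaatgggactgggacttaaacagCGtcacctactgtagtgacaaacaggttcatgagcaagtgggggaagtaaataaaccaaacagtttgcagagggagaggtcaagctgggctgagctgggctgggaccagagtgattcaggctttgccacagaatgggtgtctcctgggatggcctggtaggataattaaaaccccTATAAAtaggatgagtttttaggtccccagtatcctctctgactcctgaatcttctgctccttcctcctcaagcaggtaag
RPLP2 held 32 CG dinucleotides and was at a percentile of 100.0. S100A2 held 5 and KRT5 held 7, and neither had TATAAA in that stretch. KRT10 and RPTN each held 1 CG, with TATAAA beginning 29 and 31 bases before the start, and they lay at opposite ends of the cornified list, at percentiles of 89.3 and 0.64. A match here is a match of letters and not evidence of binding.

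Factors known to act in squamous cells were all detected, 20 of 20, with a median percentile of 58.1 and 17 above the olfactory limit. PITX1, a homeobox factor of the oral lining, was at 6277, 6904 and 6844 units, with its other probe at the 66.5th percentile of probes. MYC was at 5810, 5815 and 6187 units, and the epithelial factors KLF5 and EHF were both at a percentile of 89.1. SOX2, which is often amplified in squamous carcinoma and was chosen after its values were seen, was at 13.7, 17.5 and 15.7 units and a percentile of 23.3. Of 22 factors that define other lineages, 16 were detected and 6 undetected, with a median percentile of 24.9 and 5 above the olfactory limit. The undetected ones were CDX2, GATA1, HNF4A, PDX1, OLIG2 and NEUROD1, of gut, blood, liver, pancreas, glia and neurons. The brightest were POU5F1 at a percentile of 72.2, PAX6 at 64.4, NKX2-5 at 64.2 and NKX2-1 at 62.9.

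Markers of other cell types were mostly dim. Over 10 lists with 108 genes, 73 were detected (67.6%), against 83.3% of all genes. Of the 108, 22 were above the olfactory limit (20.4%), against 55.6% of all genes, 2 lay among the brightest 10% and the median percentile was 27.6. The cultures were of the CAL-27 line and not of a tissue. Total RNA cannot tell RNA held in few of its cells from a little RNA in each. The 2 among the brightest 10% were CD79A and CD14. CD79A, a chain of the B cell receptor complex, was at 6165, 7585 and 7125 units, a percentile of 95.3 ± 0.22, while the other 7 B and plasma cell genes lay lower, from PAX5 at 23.2 to JCHAIN at 38.4. CD14, a co-receptor for lipopolysaccharide on monocytes, was at 2690, 4356 and 3814 units and a percentile of 90.7 ± 1.75. CD4 was at 2147, 2225 and 2398 units, beside CD3D at a percentile of 44.1, CD3E at 33.4 and CD3G detected in part. Each of CD79A, CD14 and CD4 had 1 probe, and what those probes bind was not tested. MBP was at a percentile of 88.2, with its dimmest probe at the 12.6th percentile of probes.

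Of 14 fibroblast and mural cell genes, 7 were detected, with PDGFRB at a percentile of 66.0, ACTA2 at 48.0, COL1A1 at 44.9 and COL3A1 undetected. Of 9 endothelial genes 6 were detected and none lay in the upper 50% of genes. Of 18 genes of other organs' epithelia 11 were detected, and 3 were above the olfactory limit. Mesenchymal genes, which carcinoma cells make in epithelial-mesenchymal transition, held a middle place, with a median percentile of 53.7 and 12 of 14 detected (85.7%), close to the 83.3% of all genes. Tenascin C (TNC) was at a percentile of 88.2, SPARC at 82.1 ± 1.42 and the cadherin CDH2 at 71.4 ± 0.68. Vimentin (VIM) was at 241.0, 186.7 and 143.7 units and a percentile of 51.5 ± 3.98. The repressors of epithelial genes SNAI2, SNAI1, ZEB1, TWIST1 and ZEB2 were at 62.6, 61.3, 43.0, 42.9 and 38.6, and fibronectin (FN1) was at 31.8. MMP2 and PRRX1 were undetected.

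**Figure D3:**
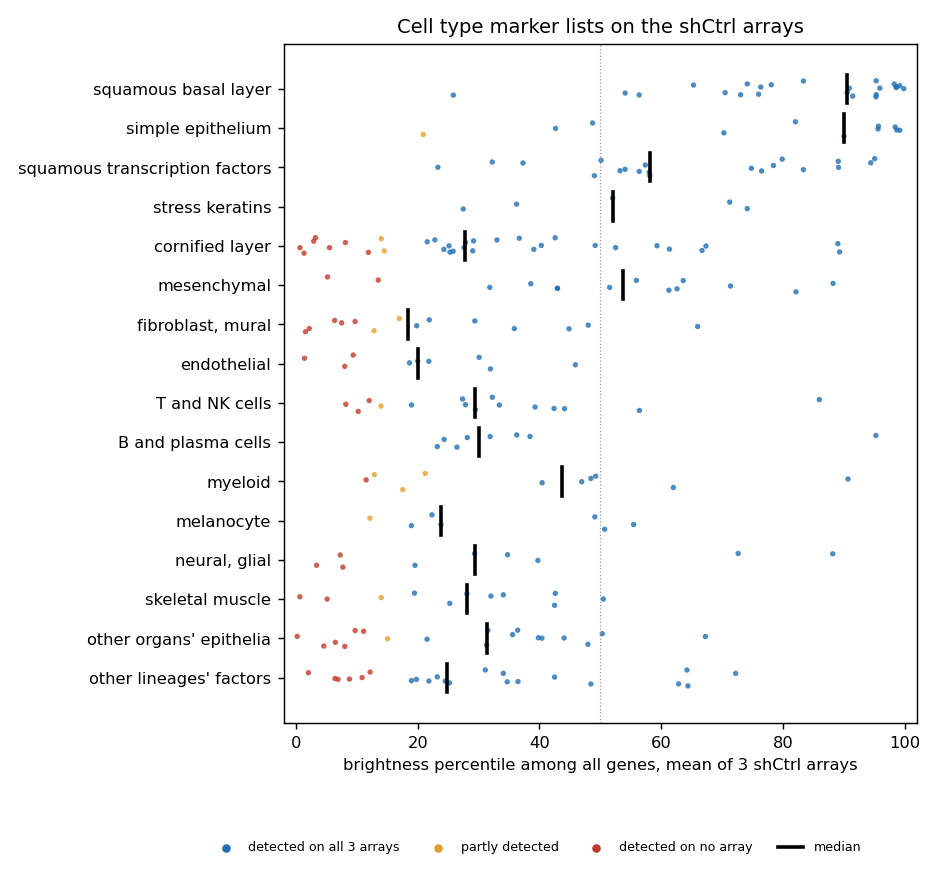
Brightness percentile among all genes, as the mean of the 3 shCtrl arrays (x axis), of every member of 16 lists (rows). Points are genes, coloured by detection, and black bars are list medians. The medians of the basal squamous and simple epithelial lists are 90.6 and 90, that of the cornified list is 27.7, and those of the fibroblast to skeletal muscle rows run from 18.4 for fibroblast to 43.7 for myeloid genes.

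Cell-matrix and cell-cell adhesion genes were unevenly spread. Of 26 integrin chains 23 were detected (88.5%), near the 83.3% of all genes. ITGB4 was at a percentile of 98.3, ITGAV at 97.3, ITGA6 at 95.9 and ITGB1 at 89.9, while ITGA8 and ITGAD were undetected. Among 23 tight junction claudins 17 were detected (73.9%), led by CLDN4 and CLDN1 (both 95.7), CLDN12 (85.7) and CLDN7 (82.1). CLDN17, CLDN20, CLDN8, CLDN10 and CLDN18 were undetected. Of 22 matrix metalloproteinases 15 were detected (68.2%) with a median percentile of 28.0. MMP7, the epithelial member known as matrilysin, was the brightest at 1764, 1376 and 1594 units.

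Of 15 genes of the EGFR family of receptors and ligands 13 were detected (86.7%), 3 lay among the brightest 10%, and the median percentile was 59.4. The 3 were EGFR, AREG and EREG. The ligands amphiregulin (AREG) at 7520, 7845 and 8014 units and epiregulin (EREG) at 5876, 6155 and 6148 lay at percentiles of 95.9 and 94.5, above TGFA at 76.1 and HBEGF at 65.4. Both AREG probes lay above the 96th percentile of probes. Of the other receptors ERBB2 was at 78.8, ERBB3 at 61.6 and ERBB4 at 28.8, and the ligands EPGN and NRG3 were undetected. Over 58 receptor tyrosine kinases, 46 were detected (79.3%) and 27 were above the olfactory limit (46.6%), beside 83.3% and 55.6% of all genes. MET, the receptor for hepatocyte growth factor, led them at 18342, 19837 and 19577 units and a percentile of 98.5 ± 0.04, followed by EGFR, the collagen receptor DDR1 at 91.1 and RYK at 89.7. The lowest were TEK, ALK and FLT3, each undetected. Of 48 nuclear receptors 44 were detected (91.7%), but 22 were above the olfactory limit (45.8%), against 55.6% of all genes. Their median percentile was 39.4. ESRRA was at 98.0, NR2F6 at 97.5, the retinoid receptor RXRA at 95.1 and NR2F2 at 90.6, while HNF4A, NR1I2 and NR0B1 were undetected.

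In the NOTCH pathway, which drives squamous cells out of the basal layer, 17 of 18 genes were detected (94.4%), beside 83.3% of all genes. The receptor NOTCH3 was at 8150, 8771 and 8765 units and a percentile of 96.4 and NOTCH2 was at 92.6, while NOTCH1, named after its values were seen, was at 55.7 ± 1.86. RBPJ, the factor that binds DNA for the pathway, was at 89.9 and the target NRARP at 88.8, with its other probe at the 16.9th percentile of probes. The ligand DLL4 was undetected. All 14 TGF-beta and SMAD genes were detected, beside 83.3% of all genes, with a median percentile of 44.5. Of these, 7 were above the olfactory limit (50%), against 55.6% of all genes. SMAD3 stood at 17591, 17436 and 18477 units and a percentile of 98.4, and its partner SMAD4 at 119.7, 127.8 and 129.9 units and 46.7. The type II receptor TGFBR2 was at 83.3, the type I receptor TGFBR1 at 40.8 and TGFBR3 at 22.9. Among frizzled receptors 8 of 10 were detected (80%), near the share of all genes, and FZD6 was brightest at 93.2. Of 19 WNT ligands 13 were detected (68.4%) and none lay in the upper 25% of genes.

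The antigen presentation pathway of MHC class I was one of the brightest lists, with 23 of 23 genes detected, 16 among the brightest 10% and a median percentile of 95. The heavy chains HLA-B at 67401, 65986 and 75788 units and HLA-C at 43487, 52010 and 56114 were both above the 99th percentile, as was HLA-G at 53525, 56810 and 58154 units. These genes are highly alike in sequence, and whether the HLA-G probe distinguishes it from the others was not tested. Of members named after their values were seen, B2M was at 99.5 and the peptide transporter chains TAP1 and TAP2 were at 96.4 and 93.9, the latter with a second probe at the 23.0th percentile of probes. The peptidase TPP2, which the study examines as an XBP-1s target, was at 440.8, 499.9 and 480.2 units and a percentile of 63.9 ± 0.25. The transactivator NLRC5 was the dimmest of the list, at 45 ± 1.1.

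MHC class II genes, usually made by professional antigen-presenting cells, were all detected, 12 of 12, but none lay in the upper 25% of genes and their median percentile was 54.6. HLA-DRA was at 245.1, 230.8 and 251.9 units, the invariant chain CD74 at 209.2, 227.3 and 222.7, and their transactivator CIITA at 55.1, 57.5 and 62.9. Of 15 ligands and receptors of immune checkpoints, all were detected. CD47, which restrains phagocytes, was at 97.3, CD276 at 93.7, NECTIN2 at 93.1 and TNFRSF14 at 92.3. CD274, the gene of PD-L1, was at 78.8, 87.1 and 85.9 units and a percentile of 41.8 ± 0.20, under the olfactory limit, and PDCD1LG2 at 27. Of the 6 ligands of the natural killer receptor NKG2D, MICB and MICA were at 87.1 and 86.2, ULBP1 at 51.6, ULBP2 at 48.9, RAET1E at 28.6 and ULBP3 at 20.6.

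Interferon-stimulated genes were bright beside dim interferon genes. Of 23 stimulated genes 22 were detected, 20 were above the olfactory limit and the median percentile was 79.7. IFITM1 was at 23701, 27124 and 26695 units, IFITM3 at a percentile of 98.2, ISG15 at 96.4 and IFITM2 at 95, and RSAD2 was undetected. Of 16 interferon genes 6 were detected, 9 were undetected and 1, IFNA4, was above the olfactory limit at a percentile of 48.6. All 15 receptor and signalling genes were detected with a median of 70.9. The receptor chain IFNGR1 was at 5038, 7706 and 8991 units, with replicate 1 the lowest, and STAT2 was at 92.8. TYK2 was the dimmest, at 10.4, 23.2 and 17.1 units. Of 39 cytokines and chemokines 31 were detected (79.5%), near the 83.3% of all genes. IL1B was at 23860, 26335 and 26011 units and a percentile of 98.9, the neutrophil attractant CXCL1 at 97.0, IL1A at 95.8 and CXCL8 at 92.8, all known as products of keratinocytes under stress. IL2, IL4 and IFNG, made by lymphocytes, were undetected at 1.1 to 1.5 units.

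The unfolded protein response, the stress response of the endoplasmic reticulum that XBP1 serves, was fully detected, 27 of 27 genes, with a median percentile of 81.8. XBP1 was at 2534, 2743 and 2761 units and a percentile of 87.8 ± 0.26. It had 1 probe, and whether that probe separates the spliced from the unspliced message was not tested. The chaperone HSP90B1 was at 39045, 37864 and 38781 units, ATF4 at 18986, 21862 and 21651, SEC61B at a percentile of 98.6 and HERPUD1 at 94.1. Of the 3 sensors of the response, named after their values were seen, ATF6 was at 72.9 ± 0.30, EIF2AK3 (PERK) at 65.6 ± 0.59 and ERN1 (IRE1-alpha), whose protein splices XBP1, at 14.7, 15.4 and 16.5 units and a percentile of 23.3 ± 0.16, under the olfactory limit. Genes of mitochondrial fission and fusion were all detected, 12 of 12, with a median of 78.5. DNM1L, the gene of the fission enzyme DRP-1, was at 1517, 1627 and 1659 units and a percentile of 81.6 ± 0.35, with both probes above the 80th percentile of probes. The fission adaptors MFF and FIS1 were at 93.7 and 74.3, and the fusion genes MFN2, OPA1 and MFN1 at 97.0, 75.3 and 64.0. The second MFN2 probe lay at the 35.2nd percentile of probes.

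Ribosomal proteins were the brightest family, with 83 of 83 detected, 79 among the brightest 10% and a median percentile of 99.6. They made up 52 of the 100 brightest genes. RPLP2 was at 98482, 104322 and 113136 units, and RPL23A, RPS2 and RPL19 followed. RPS18 was at 60292, 90388 and 103894 units, with replicate 1 the lowest. The dimmest were RPL3L, a muscle paralogue, at 38.9, RPL27A at 57.3 and RPL39L, a testis paralogue, at 75.3. Of the nuclear-encoded subunits of NADH dehydrogenase, 36 of 36 were detected and 28 lay among the brightest 10%, all between percentiles of 70.6 and 98.7. Of 39 proteasome subunits 38 were detected, led by PSMB1, PSMB4, PSMB10 and PSMB7. PSMA8, the subunit of male germ cells, was undetected at 1.0 to 1.2 units, and PSMB11, of the thymus, was at a percentile of 22.9.

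Genes of the cell cycle were all detected, 35 of 35, with a median percentile of 84.8. CDKN2A, the locus of the inhibitor p16, was at 10994, 12365 and 12396 units and a percentile of 97.5, with its other probe at the 75.6th percentile of probes, and TYMS, MCM7 and PCNA, of DNA replication, were at 95.9, 95.7 and 95.5. Among members named after their values were seen, RB1 was at 90.9, CCND1 at 90.7 and the proliferation marker MKI67 at 67.4. The inhibitors CDKN2B and CDKN1A (p21) were lowest, at 33.6 ± 1.09 and 32.7 ± 0.59.

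The enzymes and transporters of glycolysis come as sets of isoforms, and isoforms of the same step lay far apart on the array for most of those named below. Over 31 genes 28 were detected and 14 were among the brightest 10%. LDHA was at 54191, 58926 and 63643 units, PGK1 at 46834, 49797 and 50296, LDHB at 39623, 44381 and 45999 and GAPDH at 34921, 36393 and 37947. The isoforms named next were chosen after their values were seen. Of the glucose transporters SLC2A1 was at a percentile of 98.7, while SLC2A4 was at 38.4, SLC2A3 at 21.5 and SLC2A2, of liver, was undetected. Of the hexokinases HK2 was at 95.8 and HK1 at 79.1, with HK3 at 17.1. The second HK2 probe lay at the 29.3rd percentile of probes. PFKP and PFKM were at 94.3 and 92.0 and PFKL at 47.5. PKM was at 94.1 and PKLR, of liver and red cells, at 34.3. ENO1 was at 98.4, ENO2 at 77.0 and the muscle form ENO3 at 52.5. PGK2, of sperm, and FBP1, which acts in the opposite direction in gluconeogenesis, were undetected. Among the actins, the cytoplasmic ACTB was at 99.9 and ACTG1 at 99.3, the muscle forms ACTA2, ACTA1 and ACTG2 were at 48.0, 25.3 and 19.6, and the cardiac ACTC1 was undetected.

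**Figure D4:**
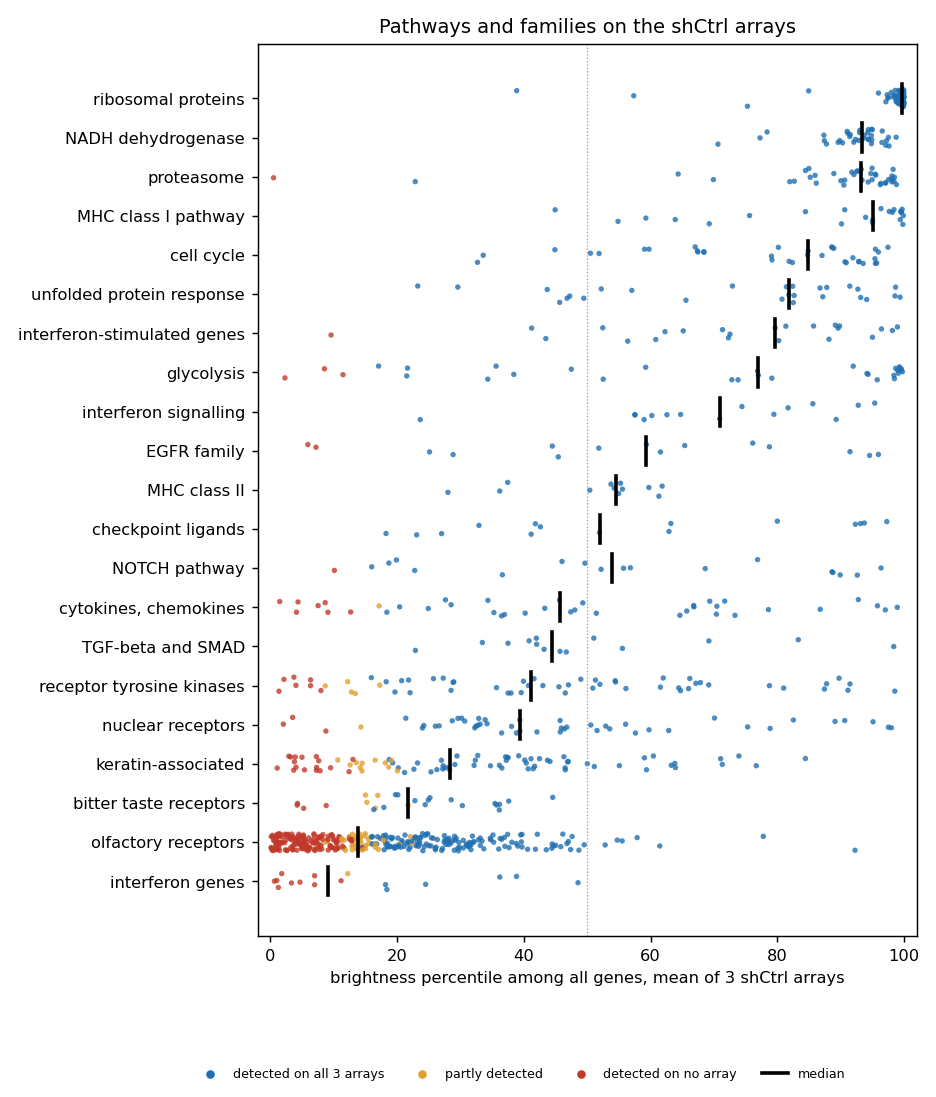
Brightness percentile among all genes, as the mean of the 3 shCtrl arrays (x axis), of every member of 21 pathways and families (rows). Points are genes, coloured by detection, and black bars are medians. Medians run from 99.6 for ribosomal proteins and 95 for the MHC class I pathway to 13.8 for olfactory receptors and 9.09 for interferon genes, and the glycolysis row splits into a cluster at the right and a scatter to the left.

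Of 38 HOX genes, which set body position, 33 were detected (86.8%) with a median percentile of 50.2, near the values of all genes. HOXD10 was at 88.9, HOXA3 at 87.4, HOXA7 at 81.7 and HOXC9 at 63.7, and HOXC11, HOXD12 and HOXD4 were undetected. Of 16 cancer-testis and germ cell genes 11 were detected, and 2 were above the olfactory limit. MAGEA1 was at 4408, 4912 and 4768 units and a percentile of 93.0, and MAGEA4 at 1185, 1320 and 1359 units and 78.6. PRAME and CTAG2 followed at 41.4 and 36.6, and DDX4, DAZL and SSX1 were undetected. Of 25 bitter taste receptors, which taste cells of the tongue make, 16 were detected, but the brightest, TAS2R31, was at 44.6 and was the sole one above the olfactory limit.

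The order of the very brightest genes depended on which probe stood for a gene. FUT6, a fucosyltransferase, gave the highest signal on the array, at 100214, 108056 and 115304 units, while its other probe lay at the 34.5th percentile of probes. SLC66A1, ZNF865, GPR155 and CYP2W1 were also among the 20 brightest, beside EEF1A1, FTH1, MT2A, TPT1, ACTB and ribosomal proteins. The dimmest ZNF865 and GPR155 probes lay at the 45.4th and 59.5th percentiles of probes, and SLC66A1 and CYP2W1 had 1 probe each. EEF1A1, a translation factor, had 5 probes, all above the 98th percentile. Over the 4993 genes with 2 or more probes, the brightest and dimmest probe were a median of 17.5 percentile points, or 2.26 on the log2 scale, apart, and in 330 genes (6.61%) by over 50 points. Of the 694 such genes among the brightest 10%, 118 (17%) had a probe below the middle of all probes. Where the dimmest probe was at background, its signal is only an upper limit and the gap is a lower bound. LEPR, GNAS, ODF2L, SLC16A12 and PABPC4, at percentiles of 97.7 to 99.9, each had 1 probe that was not well above background on any array. Whether these gaps come from transcript isoforms or from probes that bind other targets was not tested.

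**Figure D5:**
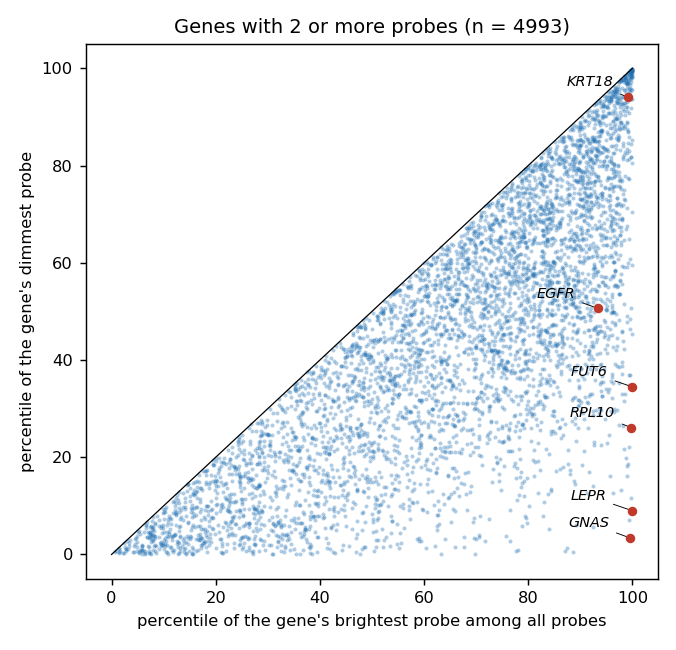
Percentile of the dimmest probe of a gene (y axis) against that of its brightest probe (x axis), among all 34119 probes on the mean of the 3 shCtrl arrays, for the 4993 genes with 2 or more probes. The diagonal marks equal probes. KRT18 lies near it, with its dimmer probe at the 94.0th percentile, and FUT6, RPL10, LEPR and GNAS lie at the right edge with a probe at or below the 34.5th percentile.

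Few genes moved between the arrays. Of 16434 detected genes, 324 (1.97%) spanned more than 2-fold over the 3 arrays, and of the 9869 in the upper 50% of the array 21 did (0.213%). Replicate 1 was the farthest from the median of the 3 in 234 of the 324, higher in 93 and lower in 141. Among the widest was the surfactant gene SFTPC, at 23.7 and 23.4 units in replicates 1 and 2 and 223.5 in replicate 3. RPRML was at 123.7, 5.6 and 4.5 units, but the last value was below the lowest signal that the flag passed on that array, and the gene counted as detected through its other probe, so its range has no place in the order. KCTD7, CYCSP52, KRTAP23-1, OR8U1, KRTAP25-1, SGIP1, CACNA1B and CD300LB followed, all with ranges of 1.97 to 2.44 on the log2 scale and percentiles under 50.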

How the data were processed

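Gene expression was measured with 1-colour Agilent arrays in 3 shCtrl samples of CAL-27, grouped by their titles. The shXBP-1s arrays were not used here. The authors deposited the spot intensity from Agilent Feature Extraction 11.0.1.1, with background already removed. Their deposited log2 table served as an alternative. The labels name RMA and describe NimbleGen labelling, while the scanner files are Agilent's, so how that table was made is unclear. From the deposited intensities, the log2 signal minus the array's 75th percentile over non-control spots was taken, spots with an outlier flag (230 to 377 per array) were left out, and spots of a probe were averaged. Of 34127 probes, 8 had no spot left on an array. A probe was detected on an array where more than 50% of its spots were well above background. Accessions were matched to RefSeq symbols, which 25765 of 34119 probes had, and a gene took its brightest probe. Of the listed genes, TWIST2, LYZ, AIF1, RAET1G, RAET1L, IFI27, CCNA1, ALDOA, SSX4 and SPANXC had no matched probe. Python 3.11.15 with pandas and numpy was used, and the gene table was tested on simulated data. There the brightest probe of each gene carried its true level, so a probe made bright by another transcript was not tried. Nothing was tested between groups, so no p-value is given. The number of arrays limits the precision. The lists and named genes were chosen with earlier results of these data known. The rule named the 20 brightest genes, the 4 brightest and the undetected or 3 dimmest members of each list, any member of a list of 15 or fewer, the 10 most variable genes, 5 with disagreeing probes, and KRT5, TP63, EGFR, XBP1, TPP2 and DNM1L. Every other gene named was chosen after its values were seen. Protein features were not analysed here. Some members of the lists are counted but not reported here by name.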

Additional observations from a re-analysis of the deposited data

How the results depend on the processing

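No paired analysis was possible because no test between groups was made. The choice of probe moved the list medians most, and the threshold for detection moved the counts most. With the dimmest probe of each gene the median percentile was 82.4 for the basal squamous list, 29.4 for the cornified list, 88.8 for MHC class I and 16.4 for olfactory receptors, and with the mean over the probes it was 86.9 for the basal squamous list, 94.6 for MHC class I and 14.6 for olfactory receptors. Normexp background correction gave 95.7 for MHC class I. Leaving out each array in turn, the olfactory median ran from 13.5 to 13.9. A further 48 list medians leave out the basal squamous, cornified, MHC class I and olfactory lists. Of these 48, the dimmest probe moved 43 by more than 1 SD over the arrays, the mean over the probes 40 and normexp 24. The deposited log2 values moved 2 and quantile normalization 0, and leaving out replicate 1, 2 or 3 moved 8, 6 and 1. The percentiles of 10 single genes were also followed, those of KRT5, TP63, EGFR, XBP1, TPP2, DNM1L, FUT6, CD79A, CD14 and CD4. By the same measure the dimmest probe moved 10 of them, the mean over the probes 9 and normexp 6. Leaving out replicate 1, 2 or 3 moved 0 of these genes, so their SDs over the arrays do not cover the choice of probe. The count of detected olfactory receptors was 227 under the looser flag of a signal significantly above background. Requiring the olfactory limit, an alternative chosen after seeing the data, moved 27 of 46 list counts. Those 46 leave out the basal squamous, cornified, simple epithelial, MHC class I and olfactory lists and the joint list of other cell types. It left 10965 genes in all, 8 cornified genes, 18 olfactory receptors and 22 markers of other cell types. Detected genes numbered 15641 when all probes of a gene had to be detected and 18031 under the looser flag. Detection calls of dim genes are thus limited by signal over background, and places on the array by which probe stands for a gene.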
